A study of Mus musculus with 36 samples.

Results

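The genes described here are 9 chosen genes for secreted antagonists of Wnt signalling: the secreted frizzled-related proteins Sfrp1, Sfrp2, Sfrp4 and Sfrp5, the Wnt inhibitory factor Wif1, and the Dickkopf proteins Dkk1, Dkk2, Dkk3 and Dkk4. Their methylation was read from CpG clusters, which are runs of listed cytosine positions lying at most 100 bp apart, wherever such a run overlapped a gene body or the 2 kb on either side of it (GENCODE M21 annotation, GRCm38 build). Of 18009 CpG clusters in the series, 8 met this rule and they belonged to 6 of the 9 genes. Sfrp2 had 3 clusters, while Sfrp1, Sfrp4, Sfrp5, Wif1 and Dkk3 had 1 each, and Dkk1, Dkk2 and Dkk4 had none.

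The data are reduced representation bisulfite sequencing (RRBS) of genomic DNA from B3, a mouse pre-B cell line, in 36 samples. In the Ikaros series the cells carried an MSCV retroviral vector for HA-tagged wild type Ikaros fused to the hormone-binding domain of the estrogen receptor (HA-Ikaros-ERt2-IRES-GFP), so that 4-hydroxy-tamoxifen (4-OHT, 0.5 uM) moves the fusion protein into the nucleus. In the Control series the same line carried a vector with ERt2, IRES and GFP but no Ikaros, and it received the same drug. Each series was collected at 0, 2, 6, 12, 18 and 24 h with 3 replicates, which gives 18 samples a series. The replicate numbers correspond to the labels' batches, except that replicate 2 came from batch 2 at 0 h and from batch 3 later. The labels list 4-OHT at 0 h where the study's methods describe none. By those methods the 0 h cells were obtained separately, in 3 batches. A change from 0 h therefore cannot be told apart from this separate collection. Both series are retroviral derivatives of 1 cell line, so a difference between the series at all times cannot be told apart from a difference between the transduced populations.

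Wnt proteins are secreted ligands that bind Frizzled receptors with the coreceptors Lrp5 and Lrp6 and so stabilise beta-catenin, which then activates transcription with Tcf and Lef factors. Secreted frizzled-related proteins carry a Frizzled-like cysteine-rich domain and bind Wnt ligands outside the cell, Wif1 binds the ligands through its WIF domain, and Dkk1, Dkk2 and Dkk4 act on Lrp5 and Lrp6, whereas Dkk3 is a divergent member of the Dickkopf family. The promoters of several of these genes lie in CpG islands that are known to be methylated in many tumours and leukaemia lines.

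The sequences upstream of the start are shown for Wif1, whose cluster differed from all others in its level, and for 3 Sfrp genes with a cluster that reaches upstream, so that the CpG content of the measured stretches can be compared. They were read from GRCm38.p6, are printed on the strand of the gene, and have in capitals each CG for which at least 1 strand was listed in the deposited tables. The Wif1 stretch is chr10:121033796-121033959 (plus strand, 164 bases, from 164 to 1 bp upstream of the annotated start), the Sfrp1 stretch chr8:23411386-23411501 (plus strand, 116 bases), the Sfrp2 stretch chr3:83765891-83766190 (plus strand, 300 bases) and the Sfrp5 stretch chr19:42202253-42202513 (minus strand, 261 bases).
Wif1: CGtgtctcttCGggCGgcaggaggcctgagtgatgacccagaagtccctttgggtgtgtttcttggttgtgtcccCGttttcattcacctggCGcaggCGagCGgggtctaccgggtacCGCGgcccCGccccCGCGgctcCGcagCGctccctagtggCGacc
Sfrp1: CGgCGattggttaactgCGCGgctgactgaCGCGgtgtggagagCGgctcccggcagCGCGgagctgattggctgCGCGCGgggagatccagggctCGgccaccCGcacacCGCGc
Sfrp2: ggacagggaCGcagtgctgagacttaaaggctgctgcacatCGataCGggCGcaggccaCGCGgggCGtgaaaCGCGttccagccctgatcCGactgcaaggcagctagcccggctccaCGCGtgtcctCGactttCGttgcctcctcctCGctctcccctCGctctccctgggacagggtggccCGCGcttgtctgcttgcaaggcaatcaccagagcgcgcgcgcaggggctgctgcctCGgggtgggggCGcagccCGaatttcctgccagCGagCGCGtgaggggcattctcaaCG
Sfrp5: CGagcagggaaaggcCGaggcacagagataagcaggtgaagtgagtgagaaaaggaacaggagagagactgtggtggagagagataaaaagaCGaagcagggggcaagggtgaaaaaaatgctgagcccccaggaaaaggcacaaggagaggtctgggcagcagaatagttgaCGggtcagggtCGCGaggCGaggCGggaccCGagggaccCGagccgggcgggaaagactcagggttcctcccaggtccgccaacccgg
The Wif1 stretch held 16 CG, 15 of them listed, and the cytosine of a further listed CG is its last base. For Sfrp1 16 of 17 were listed, for Sfrp2 25 of 30 and for Sfrp5 10 of 14. Each of the 4 stretches thus held at least 14 CG, most of them listed.

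In CpG content Wif1 lay in the middle of the 8 clusters. The Wif1 cluster held 9.76 CG per 100 bp, between the 5.64 of Dkk3, the 5.76 of Sfrp5 and the 7.67 of the third Sfrp2 cluster on one side and the 10.0 of Sfrp4, the 10.2 of the first Sfrp2 cluster, the 12.8 of Sfrp1 and the 14.5 of the second Sfrp2 cluster on the other. The ratio of observed to expected CG ran from 0.609 in Dkk3 to 1.02 in the second Sfrp2 cluster and was 0.867 in Wif1.

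The position of the clusters relative to the start differed between genes. The Wif1 cluster lay wholly upstream. The Sfrp1 cluster (chr8:23411386-23412205) ran from 116 bp upstream to 703 bp downstream of the start, through the 5′ UTR into the coding part of exon 1. Of the Sfrp2 clusters, the first (chr3:83765888-83766190) was upstream, the second (chr3:83766410-83766609) covered the 5′ UTR and the beginning of the coding sequence, and the third (chr3:83766717-83767016) lay in coding sequence. The Sfrp4 cluster (chr13:19623100-19623249) and the Sfrp5 cluster (chr19:42202115-42202513) spanned the start, and the rest of each lay in the 5′ UTR. The Dkk3 cluster (chr7:112157996-112158474) was inside the gene, 583 to 1061 bp downstream of the start, and held parts of 2 introns and the exon between them.

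Dkk1, Dkk2 and Dkk4 had no listed position within 1000 bp of their start. This window held a listed position in 49.1% of 21938 protein-coding genes. RRBS reads begin at CCGG sites, and these windows held 7 CCGG in Dkk1, 7 in Dkk2 and 1 in Dkk4, against a median of 6 over all genes. The level of these 3 genes is therefore not known from these data. Dkk3 also had 7 CCGG and Sfrp4 had 4, and both had a cluster.

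The deposited values are methylation levels that the study smoothed within clusters, so the level of a CpG draws on its neighbours within the smoothing bandwidth of 80 bp. The level of a cluster is given below as the percentage averaged over its positions with a value in every sample, with the SD over samples. For Sfrp4 every position lacked a value in some sample, and its level is the mean over all 30 listed positions in 35 samples, because Control 0 h replicate 1 had no value there. The tables give no reads, so the depth is unknown and no counting error can be stated. Positions without a value made up at most 3.18% of a library in the Ikaros series (median 0.342%) and 11.6% in the Control series (median 0.323%). Their share was higher in Ikaros in 8 of 18 pairs of 1 time point and replicate number. The share of levels at exactly 0 or 1, which are more frequent where few reads cover a site, had a median of 34.2% in the Ikaros series (26.9 to 59.1%) and of 26.7% in the Control series (21.0 to 36.2%), and was higher in Ikaros in 15 of 18 pairs of 1 time point and replicate number. Of all libraries, Ikaros 24 h replicate 2 and Control 0 h replicate 1 deviated most from the mean M-values. The library labelled Control 24 h replicate 2 went against its label, since at 63.3% of the 926 clusters that passed the series test without these 3 libraries its M-value was nearer the Ikaros mean than the Control mean. The series differences were also fitted without these 3 libraries. Of 9 pre-B marker genes, 3 had a promoter cluster (Pax5, Ebf1 and Vpreb1) and all of them were below 1%, but Klf1, the only marker of another lineage with a cluster, was also low at 1.47%, so these markers do not check the cell type.

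Wif1 had the lowest level, and the mean level of each other cluster was 89.3% or more. Over all 36 samples Wif1 had 28.3% ± 10.5 (SD, n = 36), followed by Dkk3 with 89.3% ± 1.31 and Sfrp5 with 93.5% ± 3.17. The third Sfrp2 cluster (95.5% ± 1.37), Sfrp1 (95.6% ± 2.19), Sfrp4 (96.1% ± 2.04, n = 35), the second Sfrp2 cluster (96.8% ± 3.22) and the first (97.2% ± 1.46) came next. In this order Wif1 was 61.0 points below Dkk3, and Dkk3 4.17 points below Sfrp5, both more than the larger SD of the pair. From Sfrp5 upward each step to the next cluster was smaller than that SD, although over several steps Sfrp5 was below the first and the second Sfrp2 cluster by more than it.

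**Figure D1:**
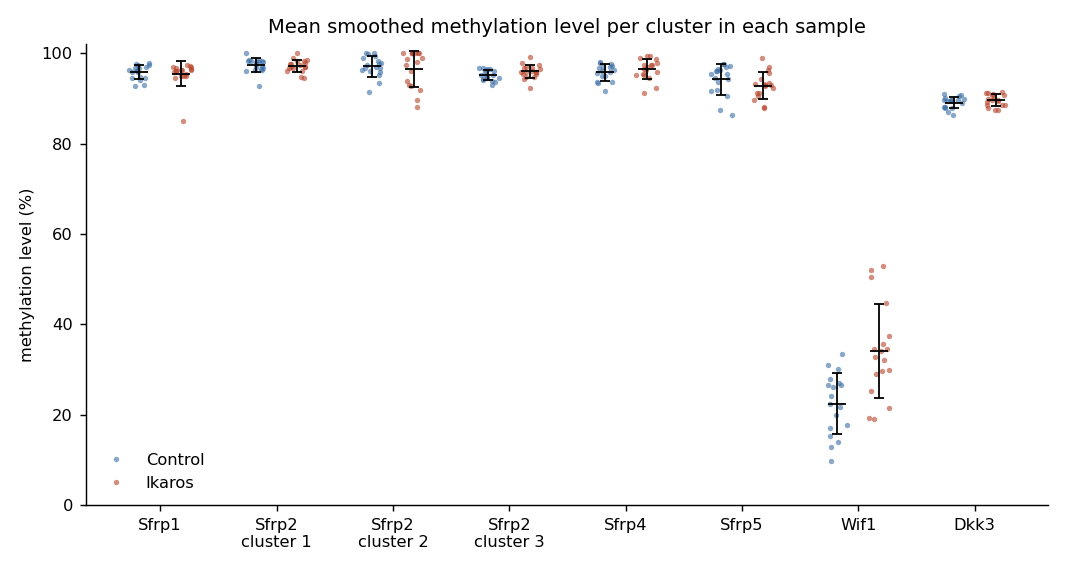
Mean smoothed methylation level (%, vertical axis) of the 8 clusters in each sample, Control in blue and Ikaros in red, with the mean and SD of each series in black. The Sfrp clusters lie above 85%, Dkk3 is near 89%, and Wif1 spans 9.89 to 53.0% with the Ikaros samples higher on average.

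Both kinds of level were found among other promoters, but the middle range was the rarest. Of 13134 clusters within 1000 bp of a start of a protein-coding gene, 58.4% had a mean level under 10%, 32.4% were over 90% and 9.17% lay between. The Sfrp1, Sfrp2 and Sfrp5 clusters belonged to the second class, as did Sfrp4 by its listed positions, and Wif1 and Dkk3 belonged to the third. Among the 12827 of these promoter clusters with at least 5 CG per 100 bp, the range that includes all 8 antagonist clusters, the shares were 59.3%, 32.1% and 8.60%.

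**Figure D2:**
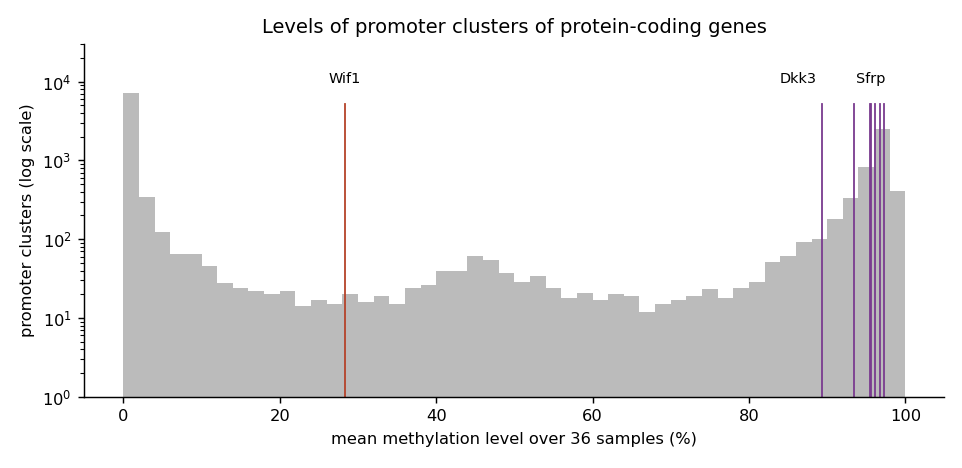
Number of promoter clusters of protein-coding genes (log scale) by mean methylation level over 36 samples (%), in bins of 2 points, with vertical lines at the 8 clusters of Wif1, Dkk3 and the Sfrp genes. Most promoters lie near 0 or above 90%, and Wif1 at 28.3% falls in the sparse middle.

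Within the Wif1 cluster the level fell towards the start in both series. The 3 CpGs farthest upstream, 149 to 164 bp before the start, had 57.2% ± 13.9 in Ikaros and 44.6% ± 11.7 in Control (SD, n = 18 each). The 13 CpGs from 89 bp to 1 bp before the start had 26.1% ± 9.85 and 14.7% ± 5.97. The difference between the series was similar along the cluster, 12.6 points in the far stretch and 11.4 points in the near one, and ranged from 9.62 to 12.9 points over its 16 CpGs. Ikaros was higher at 16 of 16, but these sites share reads and smoothing and are not independent. The split into stretches follows the widest gap between listed CpGs and was chosen after the values were seen.

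Within Sfrp1 and Dkk3 the level varied along the cluster. In Sfrp1 the mean over 36 samples was over 90% at 78 of 83 CpGs, and the lowest were at 534 bp (61.4%) and 492 bp (67.8%) downstream of the start, in coding sequence, with higher levels on both sides. In Dkk3 the level was 94.5% ± 1.82 in the 5′ UTR and 93.1% ± 1.66 in the coding part of the exon, and 51.8% ± 10.9 in the following intron (SD, n = 36). The lowest Dkk3 CpG was 974 bp downstream of the start, at 31.1%, and the last 2 CpGs of the cluster had 35.5% and 35.7%, so the level stayed low to the end of the measured stretch. Both series had these low stretches, and the following Dkk3 intron had 52.8% ± 11.8 in Ikaros and 50.8% ± 10.2 in Control. Its CpGs at 893, 911, 945 and 974 bp had a value in every sample. There the Ikaros minus Control difference ran from -2.67 to -2.03 points. At 1040 and 1061 bp, where some samples had no value, the difference was 8.74 and 10.9 points. All CpGs of the 3 Sfrp2 clusters were over 91%.

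**Figure D3:**
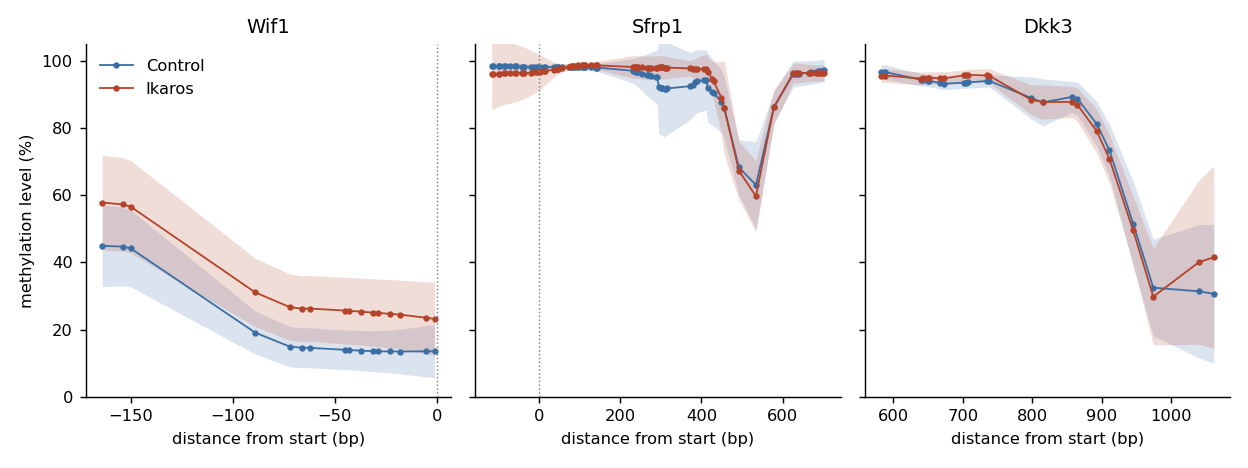
Methylation level (%) of each listed CpG of Wif1, Sfrp1 and Dkk3 against its distance from the annotated start (bp, dotted line at the start), as the mean of 18 samples a series (line and points) and its SD (shading). Wif1 falls towards the start with Ikaros above Control throughout, Sfrp1 is low over a short stretch in coding sequence, and Dkk3 falls to a low level that lasts to the end of the cluster.

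Whether Ikaros-carrying and Control cells differed in methylation was tested for all 16734 clusters with complete values by limma on M-values, which are log2 ratios of methylated to unmethylated level, with the time point as a factor and Benjamini-Hochberg adjustment over all of them. Wif1 was higher in the Ikaros series and was the only one of the 8 antagonist clusters to pass an adjusted p of 0.05. Over all clusters 4.84% passed, 3.71% with the higher level in Ikaros, so a count of 1 of 8 is not a result about the antagonists as a group. Of the 1205 promoter clusters with a level between 10 and 90%, the class of Wif1, 264 passed (21.9%).

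In the Control series Wif1 ranged from 9.89 to 33.5% with a median of 23.3%, and in the Ikaros series from 19.2 to 53.0% with a median of 33.5%. The series overlapped, and Ikaros was higher in 16 of 18 pairs of 1 time point and replicate number. The means were 34.2% ± 10.3 in Ikaros and 22.5% ± 6.77 in Control (SD, n = 18 each), a difference of 11.7 points. On the M-value scale the difference was 1.01 ± 0.24 (log2, SE), with a limma p of 0.000184 and an adjusted p of 0.00735. The fit took the 18 samples of a series as independent, although samples of 1 batch after 0 h were not separate cultures. By p Wif1 ranked 418 among all clusters tested. Among the 1205 promoter clusters between 10 and 90%, 54 had a larger difference in level, and 170 had a larger SD over the 36 samples than the 10.5 points of Wif1, against a median SD of 5.72.

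The difference had the same direction within each replicate number. It was 11.7 points in replicate 1 (Ikaros higher at 6 of 6 times), 9.28 points in replicate 2 (5 of 6) and 14.2 points in replicate 3 (5 of 6). The call was lost without replicate 1 (M-value difference 1.03, adjusted p 0.143) and without replicate 3 (0.83, adjusted p 0.129) in limma, and held without replicate 2 (1.18, adjusted p 0.0113). It held in all 36 fits that left out 1 sample, with adjusted p-values up to 0.0139, without the library labelled Control 24 h replicate 2 (1.04, adjusted p 0.00716) among them. It also held without all 3 libraries that stood apart (1.00, adjusted p 0.0111), where no other antagonist cluster passed. With the shares of empty values and of levels at exactly 0 or 1 as covariates, both of which stand in for coverage, it was 0.80 with an adjusted p of 0.334. The part of these coverage measures in the Wif1 difference was not tested further.

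Wif1 showed no change over time that passed the test. In the Control series replicates 1, 2 and 3 had 21.7, 26.6 and 13.0% at 0 h, 26.7, 27.1 and 17.2% at 2 h, and 17.7, 22.5 and 14.0% at 6 h. They had 27.9, 33.5 and 26.2% at 12 h, 15.3, 30.9 and 9.89% at 18 h, and 24.1, 30.1 and 20.03% at 24 h. Replicate 2 was thus the highest and replicate 3 the lowest of the Control samples at 6 of 6 times, an order noticed after the values were seen. In the Ikaros series replicates 1, 2 and 3 had 30.0, 21.5 and 44.7% at 0 h, 35.8, 34.5 and 37.4% at 2 h, and 19.2, 50.4 and 29.1% at 6 h. They had 51.9, 34.2 and 19.2% at 12 h, 34.6, 32.7 and 25.3% at 18 h, and 32.1, 53.0 and 29.8% at 24 h. The Ikaros replicates followed no fixed order, and at 6 h and 12 h they spread more widely (SD 16.0 and 16.4 points) than the means of the 6 times, which ran from 30.9 to 38.3%.

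**Figure D4:**
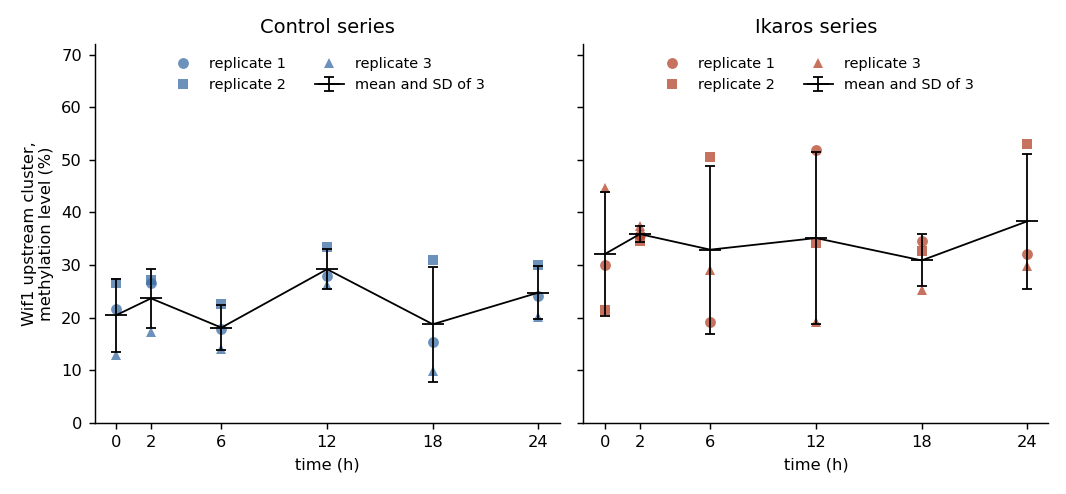
Methylation level (%) of the Wif1 upstream cluster against time (h) in the Control series (left) and the Ikaros series (right), with 1 symbol for each replicate number and the mean and SD of 3 in black. Control means lie between 18.1 and 29.2% and Ikaros means between 30.9 and 38.3%, and change over time did not pass the test in either series.

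At 0 h Wif1 had 32.0% ± 11.7 in Ikaros and 20.4% ± 6.89 in Control (SD, n = 3). This difference of 11.6 points was no larger than the Ikaros SD, replicate 2 ran the other way, and the single time points were not tested. The difference was 12.2 points at 2 h, 14.8 at 6 h, 5.93 at 12 h, 12.1 at 18 h and 13.6 at 24 h. Single libraries weighed heavily on these values. At 24 h the difference was 6.19 points without Ikaros 24 h replicate 2 and 8.85 points without both libraries of replicate 2 at that time, and at 12 h it was -2.48 points without Ikaros 12 h replicate 1. Without any 1 of the 6 samples the difference ran from 5.32 to 16.9 points at 0 h and 9.01 to 13.9 at 2 h. It ran from 6.05 to 21.7 points at 6 h and from -2.48 to 13.9 at 12 h. At 18 h it ran from 7.72 to 18.2 points and at 24 h from 6.19 to 17.8. These values without single samples were added after seeing the data. A moderated F test of change over time gave a limma p of 0.936 in Ikaros (adjusted p 0.993) and of 0.291 in Control (adjusted p 0.991), and the test of a different course in the series gave 0.930 (adjusted p 0.995). Without the 0 h samples the series difference was 1.01 on the M-value scale with an adjusted p of 0.0176.

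Dkk3 did not pass the series test. It ranged from 87.3 to 91.3% in Ikaros (median 89.6%) and from 86.2 to 91.0% in Control (median 89.4%), and the series overlapped over almost all of this range. The M-value difference was 0.22 ± 0.08 (SE), with a limma p of 0.00932 and an adjusted p of 0.125, and Ikaros was higher in 12 of 18 pairs. Within replicate numbers the difference in level was 1.06 points in replicate 1, 0.79 in replicate 2 and -0.39 in replicate 3. On the M-value scale of the test it was 0.23, 0.29 and 0.15, so only the level of replicate 3 went the other way. Leaving out Ikaros 24 h replicate 3 brought the adjusted p to 0.0478, whereas averaging the strands gave 0.10 with an adjusted p of 0.544, and the smoothed levels an adjusted p of 0.582. In the Ikaros series the condition means of Dkk3 ran from 88.1% at 6 h to 91.0% at 0 h, with an unadjusted limma p of 0.00598 and an adjusted p of 0.762.

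The Sfrp clusters did not separate the series. Sfrp1 had 95.4% ± 2.73 in Ikaros and 95.8% ± 1.53 in Control (SD, n = 18 each), with an M-value difference of -0.05 ± 0.17 (SE) and a limma adjusted p of 0.922. Ikaros was higher in 9 of 18 pairs. Its lowest sample was Ikaros 24 h replicate 2 at 85.1%, 1 of the libraries that stood apart, and without that library the difference was 0.05 (adjusted p 0.900). The other 35 samples of Sfrp1 lay between 92.8 and 97.8%.

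For Sfrp2 the first cluster had 97.2% ± 1.37 in Ikaros and 97.3% ± 1.57 in Control (limma adjusted p 0.844), and its M-value difference of -0.12 became -0.00408 without the 3 libraries that stood apart. The second had 96.5% ± 4.01 and 97.1% ± 2.28 (adjusted p 0.948), on only 8 complete positions. The third had 96.0% ± 1.48 and 95.1% ± 1.15, a difference of 0.31 ± 0.18 on the M-value scale (SE) with an unadjusted p of 0.0898 and an adjusted p of 0.435. In the third cluster, Ikaros was higher in 13 of 18 pairs. It was higher at 22 of 22 CpGs, by at most 2.35 points, but these sites share reads and smoothing and are not independent. With the coverage measures as covariates the M-value difference of the third cluster was 0.0353 (adjusted p 0.984). The neighbouring clusters of the same gene were lower in Ikaros by 0.16 and 0.53 points in level, although the mean M-value of the second cluster was higher in Ikaros by 0.08, so the 3 clusters gave no common direction.

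Sfrp5 had 92.8% ± 2.92 in Ikaros and 94.2% ± 3.35 in Control (SD, n = 18 each), an M-value difference of -0.29 ± 0.25 (SE, limma adjusted p 0.635), and Control was higher in 11 of 18 pairs. The Sfrp5 difference was -0.44 without the 3 libraries that stood apart (adjusted p 0.425), -0.45 with strands averaged (adjusted p 0.461) and -0.62 with the coverage covariates (adjusted p 0.533). Sfrp4 was tested over all listed positions and had 96.4% ± 2.23 in Ikaros (n = 18) and 95.7% ± 1.82 in Control (n = 17), a difference of 0.34 ± 0.27 on the M-value scale (SE, limma adjusted p 0.621), although Control was higher in 10 of 17 pairs. The intervals that these standard errors give include 0 for each Sfrp cluster, and they do not show that the series were alike.

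None of the 8 clusters passed the test of change over time in either series or of a different course between them, with adjusted p-values from 0.755 upward in limma. Over all 16734 clusters the tests called 0 in the Ikaros series (0.0%), 2 in the Control series (0.012%) and 0 for a different course (0.0%), where 873, 808 and 857 had an unadjusted p under 0.05. The antagonist clusters with an unadjusted p under 0.05 were Dkk3 in Ikaros and the third Sfrp2 cluster in Control (p 0.00275, adjusted p 0.755), the latter with condition means from 94.2% at 0 h to 96.4% at 2 h. Condition means of the Sfrp clusters moved by 1.70 points (the third Sfrp2 cluster) to 6.62 points (the second Sfrp2 cluster) in the Ikaros series and by 1.93 points (Sfrp4) to 5.09 points (Sfrp5) in the Control series.

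The antagonists were set beside a list of 85 other genes of the pathway, of which 76 had a promoter cluster and 75 one with complete values. By the cluster nearest its start, 43 of these 75 genes were over 90%, 24 under 10% and 8 between, whereas over 11292 protein-coding genes 26.7% were over 90% and 65.0% under 10%. Of 15 ligands 12 were over 90% and 0 under 10% (median 97.5%), of 15 receptors and coreceptors 10 and 4 (median 96.8%), and of 7 agonists, the R-spondins and their Lgr receptors, 7 and 0 (median 96.8%). Of 16 intracellular transduction genes 6 were over 90% and 10 under 10% (median 1.53%), and of 15 nuclear effectors and targets 4 and 8 (median 0.983%). These counts describe the list, and differences between the roles were not tested.

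**Figure D5:**
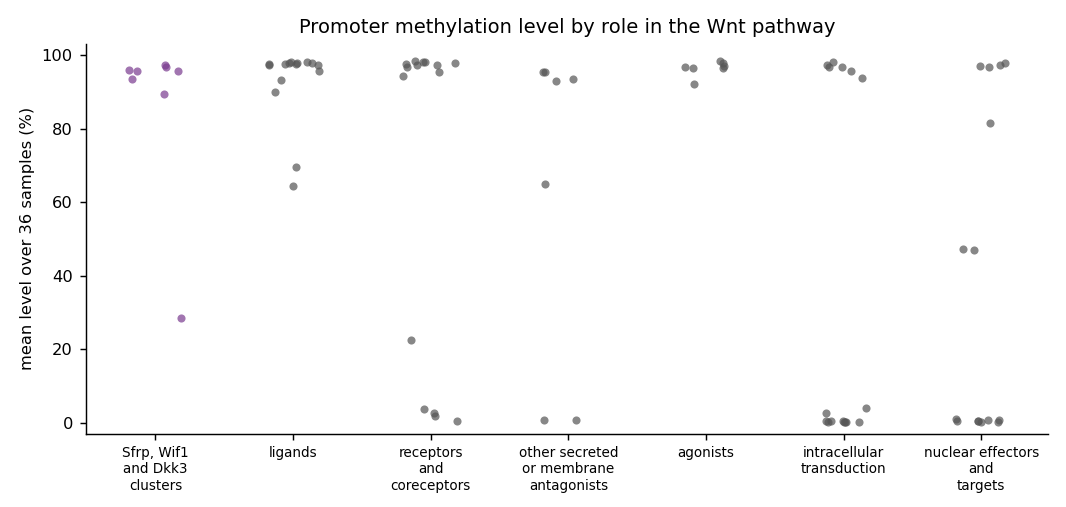
Mean methylation level over 36 samples (%) of the 8 Sfrp, Wif1 and Dkk3 clusters (purple) and of the promoter cluster nearest the start of each listed Wnt pathway gene (grey), by role. Ligands and agonists lie mostly above 90%, intracellular and nuclear genes lie both under 10% and over 90%, and Wif1 is the only antagonist cluster of the first column below 80%.

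Other secreted or membrane-bound antagonists had a cluster in 7 of 13 genes, and by the nearest cluster 4 of these were over 90%, 1 between and 2 under 10%, a class that held no cluster of the Sfrp, Wif1 or Dkk3 genes. Frzb, itself a secreted frizzled-related protein (Sfrp3), had 93.0%, the Wnt deacylase Notum 95.3%, Apcdd1 95.3% and Draxin 93.4% at the nearest cluster. Kremen1, a receptor for Dickkopf proteins, had 0.765% and the ubiquitin ligase Znrf3, which removes Frizzled receptors from the surface, 0.711%. Kremen2, the second Dickkopf receptor, was the one with an intermediate level like Wif1, with 68.0% ± 4.65 in Ikaros and 62.1% ± 6.37 in Control (SD, n = 18 each) and an M-value difference of 0.38 ± 0.12 (SE, limma adjusted p 0.0692). None of the 10 clusters of these antagonists passed the series test.

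Of the 107 tested promoter clusters of the list, 5 passed the series test, or 4.67%, which is the share of all promoter clusters of protein-coding genes (4.67%). Tcf7, a nuclear partner of beta-catenin, was higher in Ikaros (49.8% ± 4.16 against 44.0% ± 1.32, adjusted p 1.87e-05). The receptor Fzd5 was higher at both of its clusters, with 70.3% ± 3.92 against 63.1% ± 1.5 (adjusted p 0.000459) at the one 968 bp from a start and 3.21% ± 0.58 against 2.05% ± 0.56 (adjusted p 0.00928) at the start. The receptor Fzd7 was lower in Ikaros at 1 of its 2 clusters (3.07% ± 1.37 against 4.41% ± 0.80, adjusted p 0.00015), as was Dact2, an intracellular modulator at 1 of its 2 clusters (95.9% ± 1.76 against 97.5% ± 1.05, adjusted p 0.0356). The other Dact2 cluster went the opposite way without passing (98.6% ± 1.10 against 96.3% ± 5.07, adjusted p 0.299). All values are means ± SD of 18 samples, with limma p-values. With the coverage measures as covariates, added after seeing the data, 5 clusters passed again. Dact2 was lost (adjusted p 0.618), the other 4 remained, and Nkd2, an intracellular antagonist that binds Dishevelled, was gained (M-value difference 0.75, adjusted p 0.0416, against 0.43 and 0.123 without covariates). Nkd2 is named because its call changed. The median M-value difference of the list was 0.07, beside 0.03 over all clusters. The largest difference in level among these clusters, 7.18 points at Fzd5, was below the 11.7 points of Wif1, a comparison that was not tested.

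The promoter clusters whose M-values followed those of Wif1 most closely over the 36 samples were Stac2 (chr11:98052581-98052944) and Celsr1 (chr15:86033244-86033766), both with a Pearson r of 0.68. Stac2 had 78.4% ± 3.78 in Ikaros and 70.5% ± 2.74 in Control, and Celsr1 19.6% ± 2.88 and 11.1% ± 2.51 (SD, n = 18 each), so both were also higher in the Ikaros series. Within the series the r with Wif1 was 0.47 in Ikaros and 0.53 in Control for Stac2, and 0.15 and 0.65 for Celsr1 (n = 18). These genes were picked as the highest of all promoter clusters, and the points share their libraries and their coverage.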

How the data were processed

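Genomic DNA of 36 samples was profiled by RRBS. The authors trimmed the reads, mapped them with Bismark 0.10.1 (per the labels) to GRCm38 and called methylation. The authors then kept CpG clusters, limited unusually high coverage, smoothed the levels with BiSeq (bandwidth 80 bp) and deposited each level as a fraction. M-values in the second table deposited by the authors are log2 ratios of levels that were first limited to 0.01 to 0.99. Coverage is not given in the tables used here, so depth is unknown.

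The labels gave the groups, replicate numbers and batches. Positions at most 100 bp apart were joined into clusters, and levels (as percentages) and M-values were averaged over the positions with a value in all 36 samples (Python 3.11.15, pandas 2.3.3). Of 18009 clusters 16734 had such positions and were fitted with limma 3.58.1 under R 4.3.3, with Benjamini-Hochberg adjustment over all of them and a threshold of 0.05. Fits covered the difference between the series with time as a factor, change over time within a series, and the 5 interaction terms, and were tested on simulated data. The fits took all samples as independent. The study's methods describe cells that were expanded together and then split into flasks for the single times. Samples of 1 series and batch after 0 h are therefore not separate cultures. Nothing says that replicates of 1 number came from separate transductions, so p-values measure the spread between these samples and not between independent cultures.

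The genes and lists were chosen with earlier results of these data known. Named were all clusters of the 9 genes, the Wnt list promoters past the series threshold (the 6 smallest p at most), each other listed antagonist with a promoter cluster, and the 2 promoter clusters most correlated with any of the 9 genes' clusters past the threshold. Replicate numbers pair the samples through the labels' batches. Deviations from the condition means of same-numbered samples had a mean correlation of -0.000326 (from -0.0491 to 0.0733, 198 pairs).

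Alternatives were the levels in place of M-values, a replicate or batch block, all listed positions, strands averaged, coverage measures as covariates, each replicate number and each sample left out, no 0 h samples, hours as a linear term, clusters within 1000 bp of a start, and a 500 bp window for the Wnt list. Chosen after seeing the data were the fits without the 3 libraries that stood apart and the covariate fit for the Wnt list.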

Additional observations from a re-analysis of the deposited data

How the results depend on the processing

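With the replicate number as a block, which pairs the samples by batch, the Wif1 difference was 1.01 on the M-value scale (limma adjusted p 0.0029) and 820 clusters passed in place of 810; the block changed no call of an antagonist cluster. Wif1 passed in 44 of its 47 alternatives and fell short with the coverage measures as covariates (0.80), without replicate 1 and without replicate 3; over all fits without a replicate number or a sample its value ran from 0.83 to 1.18. With those covariates 335 of all clusters passed, and without a replicate number 368 to 543 did, in fits with fewer samples; the cause of the lower count with covariates was not tested. Dkk3 passed without Ikaros 24 h replicate 3 (0.25) and in none of its other 46 alternatives, with 0.10 when strands were averaged. Its mean level was 86.5% over all listed positions, which add CpGs of the following intron, and 86.6% with strands averaged.

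Among clusters that never passed, the sign turned for 3. For Sfrp1 the difference was 0.19 with all listed positions, 0.26 with coverage covariates, 0.0617 without the 0 h samples and 0.0623 without the 3 libraries that stood apart (chosen after seeing the data), and ran from -0.23 to 0.0526 without a replicate number or a sample. For the first Sfrp2 cluster it ran from -0.31 to 0.0331 in the latter fits, with the value above 0 only without replicate 2. For the second Sfrp2 cluster it was -0.53 points on the level scale, -0.21 with coverage covariates, -0.0939 without the 0 h samples, -0.18 without the 3 libraries and from -0.43 to 0.45 without a replicate number or a sample. The Wnt list had 4 to 7 calls over its alternatives. All 8 clusters reach within 1000 bp of a start, so that window left them as they were. Sfrp4 could be tested over all listed positions only. Unknown depth limits the precision of every level.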
